A study of Mus musculus with 12 samples.

Results

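Immediate early genes were read in the cochlear sensory epithelium of newborn mice as a list of 37 genes set by name, with no threshold on measured values in the rule. All 37 were in the table of 27754 genes, and 36 of them had a mean of at least 10 normalized counts over the 11 libraries and entered the tests together with 18400 genes in all. *Npas4*, a transcription factor of active neurons, was the member below that mean (0.909 normalized counts, 0 to 5 per library), and the members just above it were *Dusp2* with a mean of 17.6 and *Egr3* with a mean of 22.1.

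Each library was made from the hair cells and supporting cells of 2 ears of 1 pup, so replicates are separate animals. P1 treated and P4 treated pups carried Sox2-CreER and 1 β-catenin allele with a floxed exon 3, whose loss stabilizes β-catenin. P1 untreated and P4 untreated pups were littermates with the same floxed allele and no Cre. All pups, controls included, were of a mixed C57BL/6 and CD1 background and took tamoxifen through the milk of a mother injected with 100 µl at 50 µg/µl. The age in a group name is the day of tamoxifen, and tissue was collected 72 hours later, on postnatal day 4 for the P1 groups and day 7 for the P4 groups. There were 3 libraries each of P1 untreated, P1 treated and P4 untreated pups and 2 of P4 treated pups, since P4 treated replicate 2 was not analysed here. Sox2 drives Cre in supporting cells and their precursors, whereas RNA came from all cells left after separation from mesenchyme and neurons, so a level is a mean over cell types. For that separation the authors incubated dissected cochleae in a recovery solution before extracting RNA. Any effect of this step on the levels was not tested. Each pup was taken at 1 age only, so age, litter and session of dissection cannot be told apart.

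Immediate early genes are transcribed within minutes of a stimulus without new protein synthesis, because the factors that switch them on, such as SRF with its ELK partners and CREB, already sit at their promoters and are activated by kinases of the ERK, JNK and p38 pathways. Many encode transcription factors that then act on later genes, among them FOS and JUN subunits of the dimeric factor AP-1, EGR zinc finger proteins and NR4A orphan receptors. Others end the response: dual specificity phosphatases switch the kinases off, and ZFP36 and BTG proteins shorten the life of messenger RNA. Growth factors, depolarization, wounding and the handling of tissue are all known to induce them.

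The promoters are shown first because the 2 best known inputs to this gene class read short DNA words there: the CArG box bound by SRF, and TGACGTCA, the cAMP response element (CRE) bound by CREB, which also acts through its shorter core TGACG or CGTCA. RefSeq windows on GRCm38.p6, from 250 bases before to 50 bases after the annotated start, were held for 31 of the 37 members. No window was held for *Egr1*, *Ier2*, *Arc*, *Egr3*, *Myc* and *Fosl1*. The members printed are 4 with a large difference between ages (*Fos*, *Nr4a1*, *Egr2*, *Zfp36*), 2 others that hold a CArG box or a full CRE (*Dusp5*, *Btg2*), and *Ier5*, which moved the opposite way. The windows lie at chr12:85473640-85473939 (+ strand, *Fos*), chr15:101266596-101266895 (+, *Nr4a1*), chr10:67537316-67537615 (+, *Egr2*, 1 of its 5 windows), chr7:28379179-28379478 (- strand, *Zfp36*), chr19:53528895-53529194 (+, *Dusp5*), chr1:134079106-134079405 (-, *Btg2*) and chr1:155099587-155099886 (-, *Ier5*). Each spans the upstream flank and the first transcribed bases, and each is written 5′ to 3′ on the strand of the gene. Capitals mark the CRE core in *Fos* and *Nr4a1*, the CArG box in *Egr2*, *Zfp36* and *Dusp5*, and the full CRE in *Btg2*. The *Ier5* window held none of the words searched, and neither did those of *Jun*, *Ier3* and *Gadd45b*, which were called higher at P1.
Fos: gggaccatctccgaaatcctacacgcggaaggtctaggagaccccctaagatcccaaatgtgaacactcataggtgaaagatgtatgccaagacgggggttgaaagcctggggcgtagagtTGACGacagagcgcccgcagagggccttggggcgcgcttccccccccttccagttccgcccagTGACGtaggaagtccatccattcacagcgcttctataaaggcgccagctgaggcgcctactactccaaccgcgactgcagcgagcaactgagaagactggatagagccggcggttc
Nr4a1: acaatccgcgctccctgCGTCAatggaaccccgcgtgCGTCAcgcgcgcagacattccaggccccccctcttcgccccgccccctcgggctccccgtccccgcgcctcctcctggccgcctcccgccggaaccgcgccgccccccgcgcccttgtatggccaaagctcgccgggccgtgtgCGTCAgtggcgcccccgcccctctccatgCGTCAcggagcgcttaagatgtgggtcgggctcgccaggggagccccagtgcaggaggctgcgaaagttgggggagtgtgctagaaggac
Egr2: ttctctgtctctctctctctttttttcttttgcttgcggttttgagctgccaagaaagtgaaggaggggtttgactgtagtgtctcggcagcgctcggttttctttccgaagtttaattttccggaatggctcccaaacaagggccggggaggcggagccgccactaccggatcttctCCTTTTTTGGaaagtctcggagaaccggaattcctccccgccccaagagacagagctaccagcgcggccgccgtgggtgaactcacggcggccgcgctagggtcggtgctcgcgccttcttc
Zfp36: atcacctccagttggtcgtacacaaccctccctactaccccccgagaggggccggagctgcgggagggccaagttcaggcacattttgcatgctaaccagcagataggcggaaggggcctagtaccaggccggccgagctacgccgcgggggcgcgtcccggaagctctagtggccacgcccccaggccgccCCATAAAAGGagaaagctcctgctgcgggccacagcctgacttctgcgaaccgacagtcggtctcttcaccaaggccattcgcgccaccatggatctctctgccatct
Dusp5: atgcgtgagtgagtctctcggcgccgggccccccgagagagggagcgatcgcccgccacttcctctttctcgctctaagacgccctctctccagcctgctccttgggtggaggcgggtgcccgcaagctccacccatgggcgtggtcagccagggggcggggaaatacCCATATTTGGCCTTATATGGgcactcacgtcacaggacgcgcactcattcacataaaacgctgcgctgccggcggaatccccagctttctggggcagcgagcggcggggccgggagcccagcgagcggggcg
Btg2: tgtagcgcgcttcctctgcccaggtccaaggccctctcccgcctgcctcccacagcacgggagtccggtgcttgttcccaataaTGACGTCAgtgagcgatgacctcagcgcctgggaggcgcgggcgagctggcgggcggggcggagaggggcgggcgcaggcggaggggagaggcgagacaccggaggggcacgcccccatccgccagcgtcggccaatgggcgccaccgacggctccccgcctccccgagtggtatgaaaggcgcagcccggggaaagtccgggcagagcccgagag
Ier5: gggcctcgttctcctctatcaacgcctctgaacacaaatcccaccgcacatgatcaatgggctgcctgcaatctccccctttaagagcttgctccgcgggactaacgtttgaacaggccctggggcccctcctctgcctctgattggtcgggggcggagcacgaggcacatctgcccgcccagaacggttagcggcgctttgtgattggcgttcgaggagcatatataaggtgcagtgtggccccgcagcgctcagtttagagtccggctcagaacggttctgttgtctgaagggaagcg

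Counted on both strands, a CArG box lay in the windows of 4 of the 31 members, namely *Egr2*, *Srf*, *Dusp5* and *Zfp36* (12.9%), and in 1.81% of the 27025 gene symbols that had a window. The full CRE was in 3 members, *Maff*, *Dusp1* and *Btg2* (9.68%, against 2.03% of all symbols). The CRE core, which is part of the full CRE, was in 20 members (64.5%, against 23.0%). It was in 10 of the 14 members with a window that were called higher at P1. Members not called between ages, such as *Nr4a2* and *Nr4a3*, held it too. The AP-1 word TGACTCA or TGAGTCA was in 1 member, *Csrnp1* (3.23%, against 5.95%). The CArG box began 58 bases upstream of the start in *Zfp36*, 72 in *Egr2*, and 82 and 72 in *Dusp5*, where 2 copies adjoin. The full CRE began 166 bases upstream in *Btg2* and 143 in *Dusp1*. Base composition differs between promoters and its part in these shares was not tested. Bases outside the windows were not searched, so a member without a word here, such as *Fos* for the CArG box, may hold it elsewhere.

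Values are normalized counts, which the authors scaled for library size. They summed to between 41225626 and 44153992 per library, and the table itself holds no read depth. All 16 hair cell markers and all 18 supporting cell markers were above 0 in each library. So were all 15 mesenchyme and all 14 macrophage markers in the table, so being above 0 does not measure the share of a cell type. Counts of *Ctnnb1* do not separate exons and so do not test the deletion (log2 fold change 0.16 at P1 and 0.13 at P4, neither called). *Sox2* itself was lower in treated libraries at P1 (log2 fold change -0.67, adjusted p = 0.03). The authors name lowered *Sox2* in knock-in alleles such as Sox2-CreER as a limit of their approach, and only treated pups carried that allele. *Xist*, a transcript of female cells, was at 13 to 26 in the P1 treated and 3268 to 4180 in the P4 treated libraries, so age and sex cannot be told apart among treated pups. In the untreated libraries *Xist* was at 16, 3030 and 2794 at P1 and 32 to 39 at P4. Treatment and sex therefore cannot be told apart at P4 either, and the interaction of treatment and age includes that difference.

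The first question was how the immediate early genes differ between the younger and the older epithelium when β-catenin is not stabilized. Of the 36 members tested, 16 were higher in P1 untreated than in P4 untreated libraries and 1, *Ier5*, was lower. Called here means an adjusted p below 0.05 (limma, over all 18400 genes) together with a log2 fold change beyond 0.322 in either direction. That is 44.4% of members higher, where 10.5% of all genes tested were higher at P1, 9.38% were lower and 19.9% were called either way. The median log2 fold change of the members was 1.22, against 0.02 over all genes tested, and 33 of 36 were above 0. Before adjustment, 23 members were higher at a p below 0.05 (19.1% of all genes) and 1 was lower (16.4%). Groups did not overlap for 23 members higher at P1 (63.9%, where 22% of all genes were separated that way) and for 2 lower (19.3% of all genes). The largest differences were those of *Nr4a1*, *Fosb*, *Egr2* and *Fos*, which ranked 56, 67, 99 and 125 from the highest fold change of the 18400 genes. In whole epithelium, more cells of a type and more RNA per cell cannot be told apart.

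In treated pups 15 members were higher at P1 and 1, again *Ier5*, was lower, with a median log2 fold change of 1.254 against 0.005 over all genes tested. Here 5.63% of all genes were called higher at P1, 5.42% lower and 11.1% either way, beside 41.7% of members higher. Before adjustment, 23 members were higher at a p below 0.05 (14% of all genes) and 2 were lower (13.5%). Groups did not overlap for 25 members higher at P1 (69.4%, against 21.8% of all genes) and for 2 lower (21.3% of all genes). No libraries are shared between the treated and the untreated comparison of ages, but the fit estimated 1 spread over all 11 libraries. In both comparisons 15 members passed the test, and the share of all genes that passed in both was not counted. *Jun* and *Dusp5* passed in untreated pups only, and *Arc* passed in treated pups only. The 2 P4 treated libraries weighed on the count of members called in treated pups, which fell when either was left out. Calls over all genes tested fell as well, and 1 library then stood for the group. The calls of *Fos*, *Junb*, *Egr1*, *Csrnp1*, *Ier2*, *Dusp1*, *Btg2* and *Arc* in treated pups were lost without either of them, those of *Fosb*, *Ier5*, *Zfp36* and *Gadd45b* without replicate 1, and that of *Egr2* without replicate 3, whereas those of *Atf3*, *Nr4a1* and *Ier3* were kept in both cases. A difference of the age effect between treated and untreated pups was itself tested, and 0 of 36 members passed (limma, 0% of all genes, smallest adjusted p of a member 0.844), and at an unadjusted p below 0.05 there were 0 members above 0 (2.72% of all genes) and 1 below, *Myc* (3.08%).

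**Figure D1:**
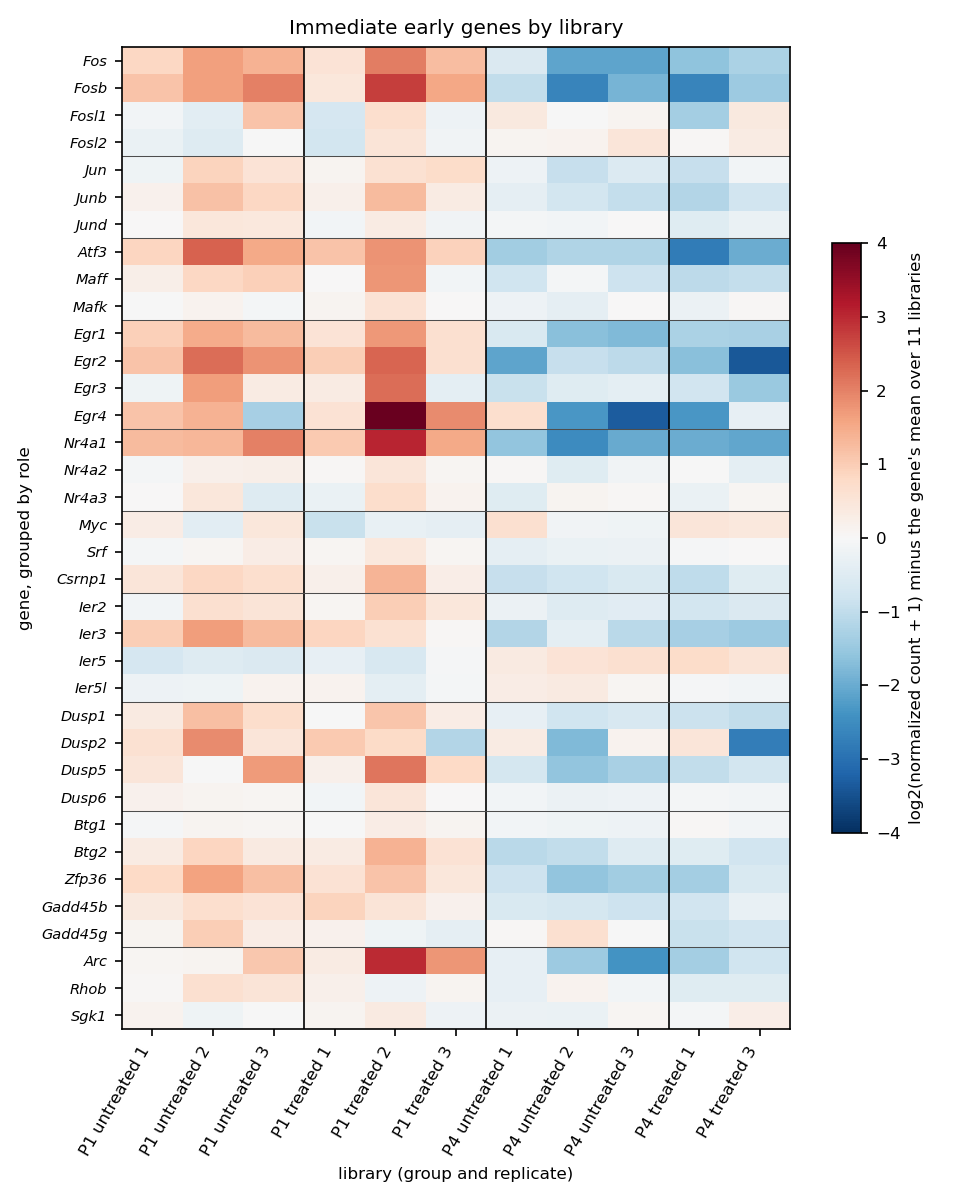
Level of the 36 tested immediate early genes (rows, ordered by role) in the 11 libraries (columns), as log2(normalized count + 1) minus the mean of the gene over all libraries, in colour from blue (lower) to red (higher). Most rows are red in the 6 P1 libraries and blue in the 5 P4 libraries, *Ier5* is the reverse, and P1 treated replicate 2 is the highest of its group for 28 of 36 genes.

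Among the FOS subunits of AP-1, *Fos* and *Fosb* were higher at P1, and *Fosl1* and *Fosl2* were not called. *Fos*, in replicate order, stood at 28970, 50305 and 42479 normalized counts in P1 untreated and at 10790, 3751 and 3795 in P4 untreated libraries. In treated libraries it stood at 23820, 67019 and 38055 at P1, and at 5298 and 6798 in P4 replicates 1 and 3. Every P1 library was above every P4 library, with P4 untreated replicate 1 nearest to them. The log2 fold change of *Fos* from P4 to P1 was 2.88 in untreated (SE 0.446, adjusted p = 0.00181) and 2.71 in treated pups (SE 0.498, adjusted p = 0.00933).

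*Fosb*, a FOS relative with a truncated splice form that is long lived in neurons, was at 1493, 2116 and 2732 in P1 untreated and at 340, 109 and 187 in P4 untreated libraries. It was at 939, 4603 and 1976 in P1 treated libraries and at 109 and 247 in P4 treated libraries. The ages did not overlap, and the log2 fold change was 3.42 (SE 0.576, adjusted p = 0.00275) in untreated and 3.63 (SE 0.644, adjusted p = 0.00807) in treated pups. *Fosl1* and *Fosl2*, the later acting FOS relatives, were low, at 12 to 73 and 83 to 197 over all libraries. Their log2 fold changes in untreated pups were 0.045 (adjusted p = 0.967) and -0.50 (adjusted p = 0.261), and the 3 P1 untreated values of *Fosl2* lay below the 3 P4 untreated values.

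Of the JUN subunits, the obligate partners of FOS, *Junb* was called at both treatments, *Jun* in untreated pups only and *Jund* in neither. *Junb* was at 9747, 19450 and 15482 in P1 untreated and 6765, 5187 and 4496 in P4 untreated libraries. The treated values were 9949, 20597 and 10771 at P1 and 3870 and 5127 at P4, again with no overlap between ages. The difference was 1.41 on the log2 scale in untreated (SE 0.309, adjusted p = 0.0101) and 1.55 in treated pups (SE 0.345, adjusted p = 0.0199).

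*Jun* was at 11226, 23323 and 18316 in P1 untreated libraries and 10860, 6665 and 8575 in P4 untreated libraries. In treated libraries it was at 13486, 19226 and 20990 at P1 and 6676 and 11758 at P4. The ages lay apart within each treatment, by a small margin in untreated pups, and P4 treated replicate 3 was above P1 untreated replicate 1. Its log2 fold change was 0.98 (SE 0.303, adjusted p = 0.0429) in untreated and 0.99 (SE 0.339, adjusted p = 0.0886) in treated pups, and only the first passed. That call was lost under 8 of 23 alternatives, among them leaving out P1 treated replicate 2, P1 untreated replicates 2 or 3, or P4 untreated replicates 2 or 3 (adjusted p from 0.0183 to 0.132 over the libraries left out). *Jund*, the subunit known for steady expression, had log2 fold changes of 0.36 and 0.40 (adjusted p = 0.111 and 0.145). *Jun*, *Junb* and *Jund* each overlap exons of an antisense gene (*Junos*, *Prdx2* and *Gm11175*), and the use of strand in the counting was not given in the sources used here.

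*Atf3*, a stress-induced factor that pairs with JUN proteins, was at 677, 1919 and 1081 in P1 untreated and at 144, 161 and 161 in P4 untreated libraries. In treated libraries it was at 837, 1295 and 717 at P1 and at 53 and 94 at P4. Each P1 value was above each P4 value, and the P4 untreated values were tightly grouped. The log2 fold change was 2.84 (SE 0.363, adjusted p = 7.18e-04) in untreated and 3.68 (SE 0.406, adjusted p = 9.97e-04) in treated pups, the smallest adjusted p of any member in treated pups. Of the small MAF proteins, which pair with other bZIP factors, *Maff* was higher at P1 without overlap in both treatments but did not pass (log2 fold change 1.23, adjusted p = 0.0818, and 1.55, adjusted p = 0.0798). With the replicate number as a block, *Maff* passed in untreated pups (adjusted p = 0.0419). *Mafk*, which overlaps the antisense gene *Tmem184a*, had log2 fold changes of 0.21 and 0.34 and was not called.

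**Figure D2:**
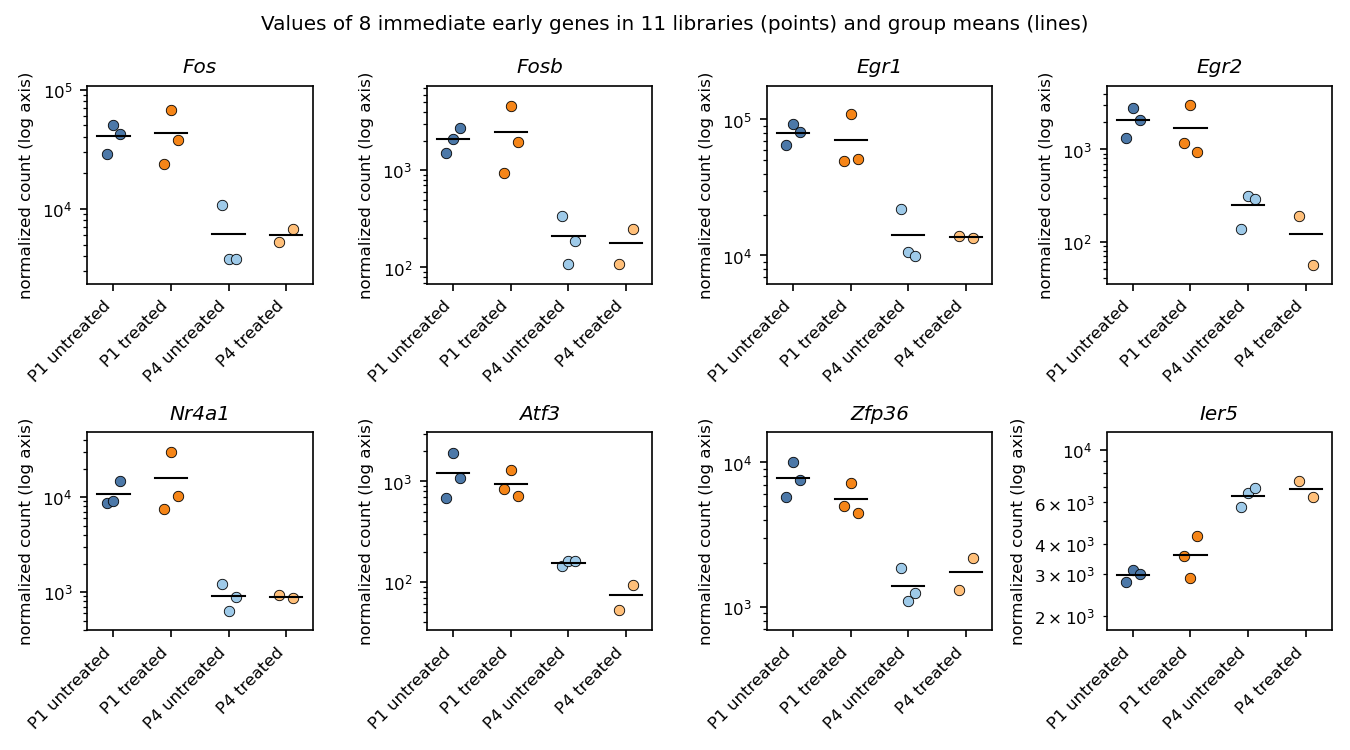
Normalized counts (log axis) of *Fos*, *Fosb*, *Egr1*, *Egr2*, *Nr4a1*, *Atf3*, *Zfp36* and *Ier5* in each library (points) with the mean of each group (lines), for 3 P1 untreated, 3 P1 treated, 3 P4 untreated and 2 P4 treated libraries. In 7 of the 8 genes all P1 points lie above all P4 points, and in *Ier5* they lie below, while treated and untreated points of the same age share their range except for *Atf3* at P4.

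The EGR factors are zinc finger proteins that act downstream of ERK and SRF. *Egr1* was at 64429, 92553 and 80535 in P1 untreated and 21883, 10531 and 9926 in P4 untreated libraries. The treated values were 49335, 110165 and 51570 at P1 and 13988 and 13547 at P4. No P4 library reached the P1 range. The difference was 2.57 on the log2 scale in untreated (SE 0.344, adjusted p = 9.06e-04) and 2.25 in treated pups (SE 0.385, adjusted p = 0.00699).

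*Egr2*, which also drives myelination in Schwann cells, was at 1334, 2851 and 2067 in P1 untreated and 138, 315 and 289 in P4 untreated libraries. It was at 1184, 3050 and 945 in P1 treated and 189 and 56 in P4 treated libraries. The lowest P1 value was that of P1 treated replicate 3 and was above every P4 value. The log2 fold change was 3.09 (SE 0.55, adjusted p = 0.00366) in untreated and 3.86 (SE 0.615, adjusted p = 0.00518) in treated pups. Of the 11 glia and Schwann cell markers, *Egr2* among them, it was the only one called higher at P1 in either comparison, 1 was lower in untreated pups and none in treated pups, and the list had a median log2 fold change of -0.23 in untreated and 0.87 in treated pups.

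*Egr3* and *Egr4* were near the bottom of the table, at 5 to 79 and 0 to 155 normalized counts. *Egr4* held 14, 155 and 36 in P1 treated, 21, 25 and 3 in P1 untreated, 1 and 7 in P4 treated, and 15, 1 and 0 in P4 untreated libraries. Its single high value was that of P1 treated replicate 2, and its log2 fold changes of 2.05 and 3.47 had standard errors of 1.21 and 1.36 (adjusted p = 0.257 and 0.129). *Egr3* had log2 fold changes of 1.20 and 1.85 (adjusted p = 0.244 and 0.151), with no overlap between ages within a treatment.

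Of the NR4A orphan nuclear receptors, which act without a known natural ligand, *Nr4a1* had the largest difference between ages of all members. It was at 8765, 9112 and 14809 in P1 untreated and 1226, 636 and 898 in P4 untreated libraries. The treated values were 7593, 29964 and 10386 at P1 and 930 and 865 at P4. The ages did not overlap, and P1 treated replicate 2 was the highest library. The fold change was 11.9 in untreated (log2 3.57, SE 0.44, adjusted p = 5.80e-04) and 14.8 in treated pups (log2 3.89, SE 0.492, adjusted p = 0.00224). *Nr4a2* and *Nr4a3* were not called, with log2 fold changes of 0.31 and 0.09 in untreated and 0.40 and 0.28 in treated pups.

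Among other transcription factors, *Csrnp1*, which encodes a cysteine- and serine-rich nuclear protein, was at 906, 1165 and 1043 in P1 untreated and 345, 375 and 426 in P4 untreated libraries. It was at 753, 1662 and 787 in P1 treated and 325 and 467 in P4 treated libraries. The ages did not overlap, and the log2 fold change was 1.44 (SE 0.277, adjusted p = 0.00542) in untreated and 1.35 (SE 0.309, adjusted p = 0.022) in treated pups. *Csrnp1* overlaps the antisense gene *1700019L13Rik*. *Srf*, the CArG box factor itself, was higher at P1 without overlap but did not pass in untreated pups (log2 fold change 0.39, adjusted p = 0.0506) or in treated pups (0.19, adjusted p = 0.42). *Myc*, a growth regulator and known target of β-catenin, had a log2 fold change of 0.007 in untreated pups (adjusted p = 0.99). In treated pups *Myc* was at 225, 339 and 323 at P1 and 579 and 552 at P4, lower at P1 in each library (log2 fold change -0.96, adjusted p = 0.0774), and its interaction of treatment and age was -0.96 (unadjusted p = 0.0441, adjusted p of at least 0.844).

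The IER genes take their name from their rapid induction. *Ier3*, linked to the survival of stressed cells, was at 1617, 2565 and 1965 in P1 untreated and 355, 614 and 382 in P4 untreated libraries. It was at 1458, 1232 and 842 in P1 treated and 318 and 293 in P4 treated libraries. All P1 values were above all P4 values, and the log2 fold change was 2.20 (SE 0.257, adjusted p = 4.60e-04) in untreated and 1.91 (SE 0.288, adjusted p = 0.00416) in treated pups. *Ier2*, a nuclear protein gene, was at 15097, 25140 and 22986 in P1 untreated and 13854, 11231 and 11738 in P4 untreated libraries. It was at 17285, 32012 and 22020 in P1 treated and 9738 and 10889 in P4 treated libraries. The separation of *Ier2* was narrow, with log2 fold changes of 0.75 (SE 0.229, adjusted p = 0.0408) and 1.16 (SE 0.256, adjusted p = 0.019). Its call in untreated pups was lost under 11 of 23 alternatives, among them leaving out P1 treated replicate 3, P1 untreated replicates 2 or 3, either P4 treated library or any P4 untreated library (adjusted p from 0.0172 to 0.124 over the libraries left out).

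*Ier5*, whose protein binds the heat shock regulator HSF1, ran the other way. It was at 2789, 3115 and 2990 in P1 untreated and 5768, 6554 and 6907 in P4 untreated libraries. In treated libraries it was at 3573, 2891 and 4331 at P1 and 7380 and 6337 at P4. Every P1 library was below every P4 library. *Ier5* fell by 1.11 on the log2 scale from P4 to P1 in untreated pups (SE 0.136, adjusted p = 5.68e-04) and by 0.95 in treated pups (SE 0.152, adjusted p = 0.00542). Its relative *Ier5l* was at 1017 to 1723 over all libraries and was not called (log2 fold changes -0.32 and -0.036).

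The dual specificity phosphatases remove phosphate from MAP kinases and are induced with the genes those kinases switch on. *Dusp1*, which acts on p38 and JNK, was at 4364, 7727 and 5484 in P1 untreated and 2693, 1946 and 2161 in P4 untreated libraries. It was at 3363, 7292 and 4125 in P1 treated and 1846 and 1710 in P4 treated libraries. The ages did not overlap, and the log2 fold change was 1.34 (SE 0.276, adjusted p = 0.00748) in untreated and 1.39 (SE 0.309, adjusted p = 0.0195) in treated pups.

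*Dusp5*, a nuclear ERK phosphatase, was at 1617, 1144 and 3773 in P1 untreated and 700, 385 and 464 in P4 untreated libraries. It was at 1314, 5019 and 2005 in P1 treated and 583 and 684 in P4 treated libraries. All P1 values were above all P4 values. The spread within P1 was wide, and the log2 fold change was 1.93 (SE 0.508, adjusted p = 0.0227) in untreated and 1.90 (SE 0.568, adjusted p = 0.0568) in treated pups. The call in untreated pups was lost without P1 untreated replicate 3, P4 untreated replicate 2 or P4 untreated replicate 3. *Dusp1* overlaps the antisense gene *Ergic1* and *Dusp5* the antisense gene *AC137853.2*. *Dusp6*, the cytoplasmic ERK phosphatase, had log2 fold changes of 0.31 and 0.22 (adjusted p = 0.109 and 0.34), and *Dusp2* was at 1 to 50 normalized counts with standard errors near 1 (log2 fold changes 1.44 and 1.35, adjusted p = 0.305 and 0.446).

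Of the growth arrest and RNA turnover genes, *Zfp36*, whose protein tristetraprolin destabilizes messages with AU-rich ends, had the smallest adjusted p of any member in untreated pups. It was at 5788, 10086 and 7588 in P1 untreated and 1838, 1097 and 1244 in P4 untreated libraries. It was at 4960, 7235 and 4481 in P1 treated and 1296 and 2160 in P4 treated libraries. The ages lay apart in every library. The log2 fold change was 2.49 (SE 0.279, adjusted p = 3.83e-04) in untreated and 1.70 (SE 0.312, adjusted p = 0.00925) in treated pups. *Zfp36* overlaps the antisense gene *Gm44710*.

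*Btg2*, an antiproliferative partner of the deadenylase complex, was at 6816, 9972 and 7070 in P1 untreated and 2604, 2785 and 3807 in P4 untreated libraries. It was at 6874, 14277 and 8198 in P1 treated and 3898 and 3241 in P4 treated libraries. It was higher in all P1 libraries, with log2 fold changes of 1.37 (SE 0.259, adjusted p = 0.00487) and 1.39 (SE 0.289, adjusted p = 0.0152). Its relative *Btg1* was near level, with log2 fold changes of 0.21 and 0.17 (adjusted p = 0.107 and 0.27). *Gadd45b*, a stress sensor that activates p38 and JNK, was at 624, 756 and 691 in P1 untreated and 312, 293 and 265 in P4 untreated libraries. It was at 873, 679 and 536 in P1 treated and 279 and 382 in P4 treated libraries. The ages did not overlap, with log2 fold changes of 1.247 (SE 0.191, adjusted p = 0.00175) and 1.06 (SE 0.213, adjusted p = 0.0132). *Gadd45g* was not called between ages (log2 fold changes 0.24 and 0.72).

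*Arc*, best known as a regulator of synapses, was at 358, 361 and 722 in P1 untreated and 268, 123 and 64 in P4 untreated libraries. It was at 425, 2659 and 1144 in P1 treated and 130 and 195 in P4 treated libraries. P1 treated replicates 2 and 3 stood above all other libraries. *Arc* passed in treated pups (log2 fold change 2.77, SE 0.731, adjusted p = 0.0366) and not in untreated pups (1.81, SE 0.654, adjusted p = 0.0737). With the replicate number as a block, the call in treated pups was lost (log2 fold change 2.62, adjusted p = 0.0874), as it was without P1 treated replicates 2 or 3, P1 untreated replicate 1 or either P4 treated library (adjusted p up to 0.197). *Rhob*, a small GTPase of endosomes, and *Sgk1*, a kinase of ion transport, were not called, with log2 fold changes in untreated pups of 0.50 (adjusted p = 0.072) and 0.12 (adjusted p = 0.61).

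**Figure D3:**
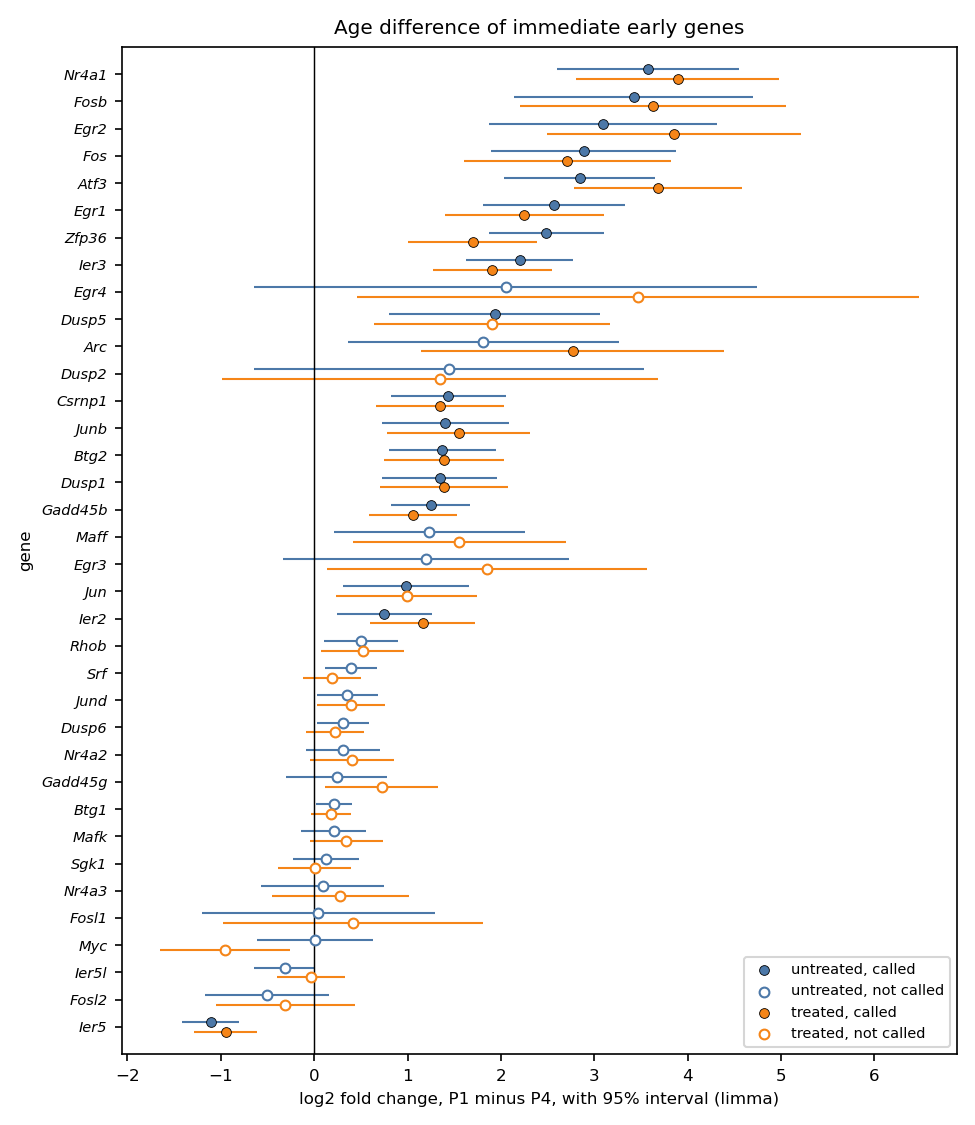
log2 fold change from P4 to P1 of each tested immediate early gene (x axis) in untreated (blue) and treated (orange) pups, with 95% intervals from the limma fit and filled points for genes called. Among called genes, *Nr4a1* lies farthest to the right in both and *Ier5* is the one left of 0, and intervals are widest for *Egr4* and *Dusp2*, the members with few counts.

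Levels of different genes were set side by side only per length, as the mean normalized count over all 11 libraries per kb of exonic sequence (GENCODE M21, GRCm38). *Ier2* was the highest at 11470, followed by *Fos* at 10860 and *Egr1* at 10510, then *Jund* at 6733, *Junb* at 4402 and *Jun* at 4309. *Egr4*, *Dusp2*, *Egr3* and *Npas4* were the lowest, at 11.8, 8.81, 5.01 and 0.22. The first 3 in this order differ by less than the spread of *Fos* between pups of 1 group, so their order is not resolved. The order was not that of the age difference throughout, and no correlation was computed. *Ier2* was the most abundant per kb and had the smallest called log2 fold change in untreated pups, 0.75, and *Nr4a1* with the largest was 9 in order. *Fos* and *Egr1*, next to *Ier2* in level, had large log2 fold changes of 2.88 and 2.57.

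The members varied more between pups of a group than most genes did. The within-group SD on the log2 scale had a median of 0.397 over the members and 0.227 over all genes tested. P1 treated replicate 2 was the highest of its group for 77.8% of members, against 35.3% of all genes tested. P1 untreated replicate 1 was the lowest of its group for 72.2% of members (31.9% of all genes). The mean log2 level of the 36 members was 10.36, 10.80 and 10.67 in P1 untreated, 10.28, 11.15 and 10.37 in P1 treated, 9.64, 9.32 and 9.36 in P4 untreated, and 9.24 and 9.36 in P4 treated libraries. The lowest P1 library stood above the highest P4 library on this mean, and the P1 treated libraries were the most spread.

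The second question was whether these genes differed between treated and untreated pups. Stabilized β-catenin and the Sox2-CreER allele cannot be told apart in this comparison. At P4, sex cannot be told apart from treatment either (*Xist* log2 fold change 6.70, treated against untreated). At P1, 0 of 36 members were called in treated against untreated libraries (limma), where 0.353% of all genes were called, 0.261% higher and 0.0924% lower. Before adjustment, 0 members were higher and 2 were lower at a p below 0.05, *Ier3* and *Gadd45g*, beside 5.18% and 6.99% of all genes. At P4, 0 of 36 were called (limma), where 0.0543% of all genes were called, 0.0326% higher and 0.0217% lower. Before adjustment there were again 0 higher and 2 lower at a p below 0.05, *Atf3* and *Gadd45g* (6.26% and 5.38% of all genes). The median log2 fold change of the members was -0.007 at P1 and 0.014 at P4, against 0.004 and 0.002 over all genes tested.

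*Ier3* was the member with the smallest adjusted p at P1. Its treated values of 1458, 1232 and 842 lay below the untreated values of 1617, 2565 and 1965 (log2 fold change -0.81, SE 0.257, adjusted p = 0.234). It was the only member whose groups did not overlap at P1 (8.33% of all genes were lower and 6.95% higher in that sense). At P4, *Gadd45g* was at 323 and 354 in treated and 620, 937 and 603 in untreated libraries (log2 fold change -1.06, SE 0.273, adjusted p = 0.265). At P1, *Gadd45g* was at 676, 542 and 474 in treated and 657, 1187 and 742 in untreated libraries, which overlap (log2 fold change -0.58, adjusted p = 0.373). *Atf3* at P4 was lower in both treated libraries, with a log2 fold change of -1.12 (SE 0.406, adjusted p = 0.339). Groups did not overlap at P4 for 9 members lower in treated pups, *Atf3*, *Dusp1*, *Gadd45g*, *Ier2*, *Ier3*, *Ier5l*, *Jund*, *Maff* and *Rhob*, and for 1 higher, *Srf*, where 16.9% of all genes were lower and 16.6% higher with 2 libraries against 3.

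The intervals give the size of treatment difference that these libraries could not resolve. For *Fos* at P1 the log2 fold change was -0.009 with a 95% interval from -0.997 to 0.979, and at P4 it was 0.16 with an interval from -0.94 to 1.27. For *Egr1* it was -0.26 at P1 (-1.02 to 0.50) and 0.063 at P4 (-0.79 to 0.92). *Jun* had 0.061 at P1 (-0.61 to 0.73) and *Btg1*, a tightly measured member, 0.090 (-0.10 to 0.28). The widest interval at P1 was that of *Egr4*, from -0.95 to 4.44.

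**Figure D4:**
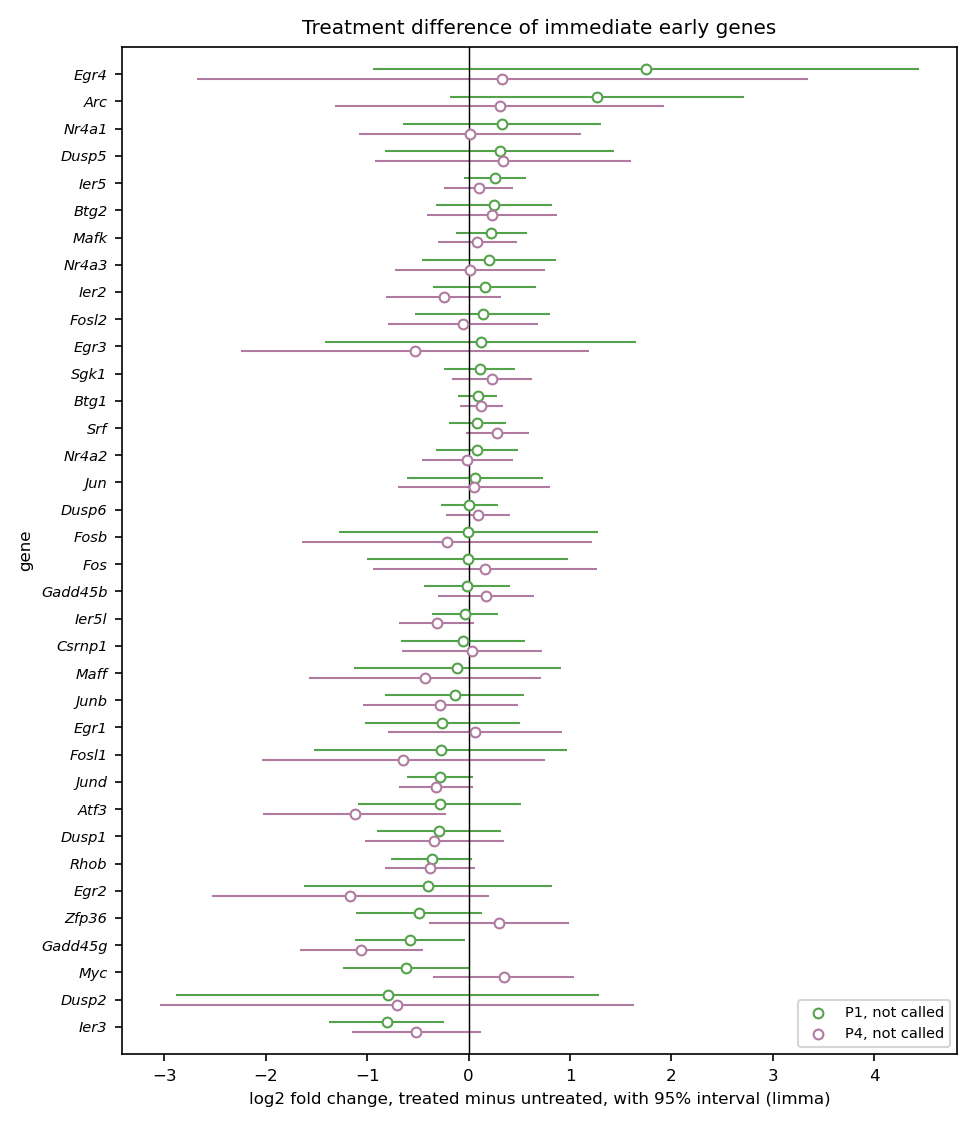
log2 fold change from untreated to treated of each tested immediate early gene (x axis) at P1 (green) and P4 (purple), with 95% intervals from the limma fit. All points are open because none of the 36 genes was called, and 30 of them at P1 and 29 at P4 lie within 0.5 of 0.

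The other genes of the response and of its pathway were counted from lists named by function. For these and the cell type lists below, 10.5% of all genes tested were called higher and 9.38% lower at P1 in untreated pups. In treated pups the shares were 5.63% and 5.42%. Of 39 other primary response genes tested, 16 were higher and 1 lower in P1 untreated against P4 untreated libraries, with a median log2 fold change of 0.67. They included *Cyr61*, a secreted matrix protein gene (11652, 17270 and 19109 at P1, and 3200, 1876 and 2543 at P4; log2 fold change 2.66), *Socs3*, an inhibitor of cytokine signalling (2.90), *Nfkbiz*, a nuclear NF-κB regulator (2.44), and *Plk2*, a stress-induced kinase (1.14). In treated pups 13 of 39 were higher and 0 lower, with a median of 0.44. Of 40 ERK, JNK and p38 kinases and nuclear relays, 1 was higher and 6 lower at P1 in untreated pups (median -0.034), and 1 and 3 in treated pups (median -0.15).

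Of 13 MAP kinase feedback inhibitors, 5 were higher and 3 lower in untreated pups (median 0.41), with *Spry1*, an inhibitor of receptor tyrosine kinase signalling, at a log2 fold change of 1.18 and the phosphatase *Dusp8* at -1.80. In treated pups 1 was higher and 2 lower (median 0.012). Of 16 SRF targets of the actin cytoskeleton, 4 were higher and 2 lower in untreated pups (median 0.097) and 2 and 1 in treated pups (median 0.15). Of 20 heat shock and chaperone genes, 4 were higher and 2 lower in untreated pups (median 0.17) and 2 and 1 in treated pups (median 0.023). No gene of these lists was called for treatment at either age except *Cryab*, a small heat shock protein gene, which was higher in P1 treated libraries (log2 fold change 1.21, adjusted p = 0.0131). Among the 39 primary response genes at P1, 3 were higher and 11 lower in treated libraries before adjustment at a p below 0.05 (median -0.32), and none after it.

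**Figure D5:**
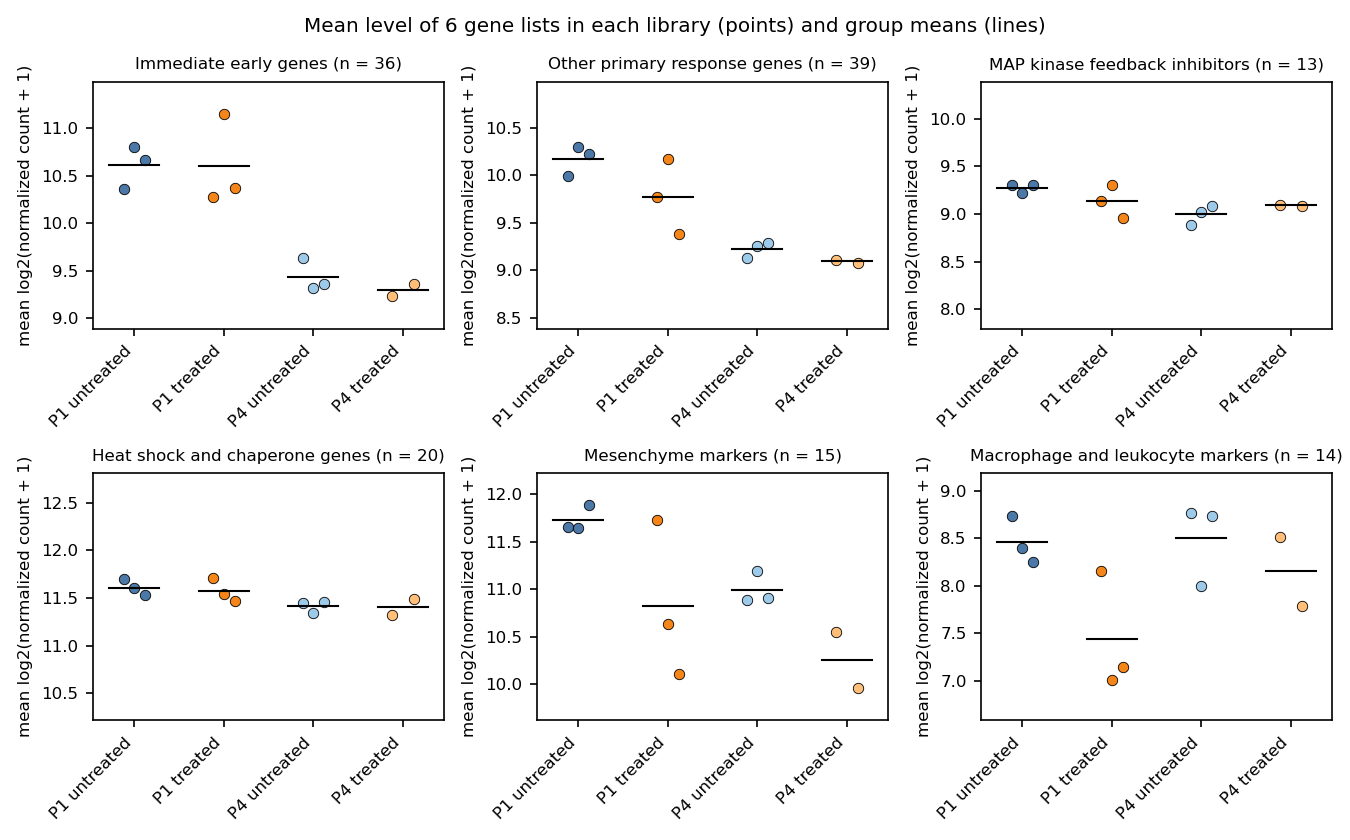
Mean log2(normalized count + 1) over the tested genes of 6 lists in each library (points) with the group mean (lines). Immediate early genes and other primary response genes are higher in every P1 than in every P4 library, heat shock genes span less than 0.5, mesenchyme markers reach their lowest level in P4 treated libraries (9.96) and macrophage markers in P1 treated libraries (7.005).

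Markers of other cells moved with some of these groups. Of 15 mesenchyme markers, 4 were higher and 1 lower in P1 untreated than in P4 untreated libraries (median 0.97), and their mean log2 level was 11.64 to 11.88 at P1 and 10.89 to 11.19 at P4, though their summed level was 162145 to 185132 at P1 and 195899 to 214099 at P4. In treated pups the mesenchyme level was 11.72, 10.64 and 10.11 at P1 and 10.55 and 9.96 at P4. Of 14 macrophage and leukocyte markers none was called between ages, and their level was lower in P1 treated (7.005 to 8.15) than in P1 untreated libraries (8.25 to 8.73), where 11 were lower at a p below 0.05 before adjustment and 0 after it. The part of these cells in the member levels was not tested.

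Of 16 hair cell markers 2 were higher and 6 lower in P1 untreated than in P4 untreated libraries, and of 18 supporting cell markers 3 were higher and 5 lower. Of 11 neuron markers 0 were higher and 1 was lower, of 10 stria vascularis markers 1 was higher and 2 lower, and 0 of 10 endothelial and 0 of 6 erythroid markers were called. No mesenchyme or macrophage marker was at 0 in any library, whereas *Prph* and *Th* of the neuron list, *Cdh19* of the glia list, *Kdr* of the endothelial list and *Dct*, *Mlana* and *Tyrp1* of the stria list were at 0 in at least 1. The stria markers stood at 10.72 in P1 treated replicate 2, the library with the highest member level, and at 8.82 and 8.79 in the other P1 treated libraries. Their summed level was 77937, 97682 and 136610 in P1 treated replicates 1, 2 and 3, so replicate 3 was highest on that measure. In P1 untreated libraries their mean log2 level was 9.94, 8.66 and 9.25, highest in the replicate with the lowest member level. Their part in the member levels was not tested. Without P1 treated replicate 2, 15 members were called between ages in treated pups, and 2043 of all genes tested.

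Sex was compared through *Xist*. P1 untreated replicate 1, with little *Xist* like the 3 P4 untreated libraries, was above all 3 of them for 25 of the 36 members tested and below all 3 for 4. That library and the 3 P1 treated libraries, also low in *Xist*, all lay above the P4 untreated libraries for 19 of the 36 members and below them for 1. These positions were not counted over all genes tested, so the member counts have no background to be set against. With log2 *Xist* as a covariate the members called were 12 in untreated pups, with a median log2 fold change of 0.85, and 1 in treated pups, where *Xist* and age cannot be told apart, with a median of 1.67. Over all genes tested, 1807 were then called in untreated pups, against 3659 without the covariate. In treated pups 28 were called, against 2034.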

How the data were processed

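Cochlear RNA of single pups was sequenced in 4 groups. The authors deposited a score per gene, namely normalized counts that they rounded to whole numbers. The submitters' notes name STAR 2.5.2b, mm10, featureCounts and DESeq2. In the study's methods featureCounts served quality control, and the authors quantified gene counts with Sailfish through tximport. That the table holds the latter, and the use of strand in counting, were not given in the sources used here. No count model was used, because the values are no longer raw counts. The table had 626 entries with no symbol, and 1 repeated ID was dropped.

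Values were taken as log2(normalized count + 1) and fitted with limma 3.58.1 in R 4.3.3, with 4 group means, 1 spread for all libraries and eBayes with trend. Genes with a mean of at least 10 over the 11 libraries were tested, 18400 in all. P-values took the Benjamini-Hochberg adjustment over all of them, and calls needed an adjusted p below 0.05 and a log2 fold change beyond 0.322. A fold change on this scale understates that of low genes. The fit was tested on simulated data. Libraries were compared by age within a treatment, by treatment within an age, and by their interaction.

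Every member is named, and members called in at least 1 comparison are given library by library. Of the other lists, at most 4 called genes were named by adjusted p. The members and lists were chosen with earlier results of these data known, so no list was tested as a set. Counts of members stand beside those of all genes, and for the other lists the shares called between ages are given once. Same-numbered P1 untreated and P4 untreated libraries deviated together (r of residuals 0.135, 0.136 and 0.115). Same-numbered pairs of the other comparisons gave -0.061 to 0.026. Pairs with different numbers were not computed, so these values do not show whether the numbers mark pairs. The replicate block was therefore fitted as an alternative. Other alternatives were the pseudocount, the minimum mean, the trend, the scaling, the libraries in the fit, log2 *Xist* as a covariate, the thresholds, and leaving out each library. Promoter windows came from RefSeq (GRCm38.p6), and gene lengths and antisense overlaps from GENCODE M21.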

Additional observations from a re-analysis of the deposited data

How the results depend on the processing

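The count of members called between P1 and P4 ran from 12 to 21 in untreated pups over the settings other than leaving out a library, and from 14 to 20 with each library left out (17 as reported). In treated pups it was 16 as reported, 10 when only the 2 groups compared were fitted and 1 with log2 *Xist* as a covariate, and it ran from 4 to 17 with each library left out, the lowest without P4 treated replicate 1 and the next, 7, without P4 treated replicate 3. The cause was not tested, except that leaving out a P4 treated library leaves 1, which was assumed to vary like the other groups. The median log2 fold change was 0.85 in untreated pups, 1.67 in treated pups and 0.55 for the interaction with log2 *Xist* as a covariate. With each library left out it ran from 0.87 to 1.39 in untreated pups, the lowest without P1 untreated replicate 2, from 0.97 to 1.36 in treated pups, from -0.25 to 0.14 for treatment at P1, from -0.15 to 0.061 at P4 and from -0.15 to 0.20 for the interaction. No member was called for treatment or interaction under any setting. With the replicate block, 18 members were called in untreated and 15 in treated pups, and besides *Maff* and *Arc* it changed no call of a member. Over all genes the block gave 3290 calls in untreated and 1326 in treated pups. No member that was called as reported changed direction in the comparison of its call. In untreated pups the calls of *Atf3*, *Btg2*, *Csrnp1*, *Egr1*, *Egr2*, *Fos*, *Fosb*, *Gadd45b*, *Ier3*, *Ier5*, *Nr4a1* and *Zfp36* held under all 23 alternatives, that of *Jun* was lost under 8 and that of *Ier2* under 11. In treated pups the call of *Atf3* held under all 23. The table holds scaled values and not reads per gene, so no counting interval was given for members with few counts.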
